A study of Mus musculus with 6 samples.

Results

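Dense clusters of accessible regions away from gene ends were described in mouse embryonic stem cells on their way out of mitosis. The assay was ATAC-seq, in which the transposase Tn5 inserts sequencing adapters into open DNA, and each sample was deposited as 1 list of peaks, the stretches called open. Peaks of 6 lists on chromosomes 1 to 19 were merged where they overlapped by at least 1 bp, which gave 64018 regions. Of these, 36878 were held by at least 2 lists, meaning that those lists had a peak there. Regions with their centre more than 1 kb from every annotated end of a protein-coding gene were called shared distal regions, and there were 26104. Neighbours separated by a gap of at most 12.5 kb were chained, and a chain of 5 or more regions was called a dense cluster. This left 231 chains with 1354 member regions, 5.19% of the shared distal regions. The other 24750 shared distal regions, single or in chains of 2 to 4, served as the background.

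All samples came from 1 line, CGR8 mouse embryonic stem cells, which the series text calls Cdt1-MD. They grew untreated on gelatin, in a serum-free mixture of Neurobasal medium and DMEM/F-12 with the supplements N-2 and B-27, the GSK3 inhibitor CHIR99021, the MEK inhibitor PD184352 and leukemia inhibitory factor, so all groups share both inhibitors. There were 3 groups of 2 samples, called mito, LM and eG1-1. From the series title, mito was taken as mitosis, LM as late mitosis and eG1-1 as early G1, but the labels use only the short names, and the deposited peak names write Telo for LM. The titles and the protocol give different numbers of cells per sample. Replicate number coincided with a code in the peak names that was taken as the sequencing run. Nothing says that replicates were separate cultures. Every p-value here is therefore set by the spread between these 6 samples, and that spread may be technical. The lists held 24598 and 30446 peaks for mito, 23867 and 20639 for LM, and 32101 and 48396 for eG1-1. They hold no read counts, and the depth is unknown. The absence of a peak does not show that a region was closed.

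Clusters of this kind resemble, by their spacing alone, what are called enhancer clusters or super-enhancers. In embryonic stem cells such clusters lie near genes of the pluripotency network, are bound by OCT4, SOX2, NANOG, ESRRB and KLF factors, and also carry acetylated histones and Mediator. During mitosis chromosomes condense and most transcription stops, while many regulatory regions stay accessible, and the factors return as cells enter G1. Only accessibility was measured here, so a chain is a spacing pattern of open regions and is not called an enhancer.

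The sequences under some members show what these regions can contain. The reference table used here holds sequence around annotated RefSeq starts (250 bases before to 50 after, GRCm38.p6), and 77 of the 1354 members (5.69%) lay over such a start, against 1489 of the 24750 others (6.02%). The 4 windows below were chosen after their values were seen, because each lies whole inside a member that all 6 lists held, because 3 are starts of non-coding transcripts and 1 of a coding gene, and because their scores ran differently over the stages. Capitals mark matches to a KLF motif (GGGNGTGG) or to the OCT octamer (ATGCAAAT) on either strand, and each window is printed 5′ to 3′ on the plus strand of the genome.
Platr26, chr2:71719167-71719466: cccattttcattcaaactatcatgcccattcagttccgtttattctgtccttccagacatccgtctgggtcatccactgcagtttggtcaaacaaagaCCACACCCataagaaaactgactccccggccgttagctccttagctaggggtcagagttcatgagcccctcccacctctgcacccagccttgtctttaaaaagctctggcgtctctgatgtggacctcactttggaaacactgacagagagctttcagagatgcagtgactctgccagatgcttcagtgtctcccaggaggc
D230017M19Rik, chr1:72243743-72244042: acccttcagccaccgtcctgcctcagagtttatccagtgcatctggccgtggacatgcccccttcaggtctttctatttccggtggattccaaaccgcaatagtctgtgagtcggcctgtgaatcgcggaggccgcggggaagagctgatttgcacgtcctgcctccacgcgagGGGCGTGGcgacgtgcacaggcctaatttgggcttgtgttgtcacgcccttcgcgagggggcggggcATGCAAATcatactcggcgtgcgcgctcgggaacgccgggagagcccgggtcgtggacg
Platr22, chr1:136695961-136696260: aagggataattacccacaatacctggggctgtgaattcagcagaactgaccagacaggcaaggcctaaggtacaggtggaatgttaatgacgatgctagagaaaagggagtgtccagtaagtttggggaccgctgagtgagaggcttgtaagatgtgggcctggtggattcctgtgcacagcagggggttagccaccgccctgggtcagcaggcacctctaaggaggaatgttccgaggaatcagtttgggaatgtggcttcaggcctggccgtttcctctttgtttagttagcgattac
Uaca, chr9:60794192-60794491: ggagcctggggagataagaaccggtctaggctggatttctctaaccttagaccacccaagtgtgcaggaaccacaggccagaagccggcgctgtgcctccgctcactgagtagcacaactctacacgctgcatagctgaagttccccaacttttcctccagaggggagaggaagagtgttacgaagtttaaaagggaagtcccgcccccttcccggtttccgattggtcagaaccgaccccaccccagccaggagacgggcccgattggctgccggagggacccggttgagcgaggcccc
Platr22 and Platr26 belong to a group of long non-coding RNAs named for their association with pluripotency. The Platr26 window holds 1 KLF match, and that of D230017M19Rik holds 1 KLF match and 1 octamer. The windows of Platr22 and Uaca hold none of the 8 motifs searched.

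The scores of these 4 regions, the authors' own value per peak, were placed as percentiles within each list, where 100 is the strongest peak. The Platr26 member (chr2:71718626-71719886, 67630 bp from the nearer end of Itga6, a laminin receptor subunit) stood at percentiles 83.3 and 92.1 in mito, 84.0 and 87.0 in LM, then 86.6 and 87.2 in eG1-1. It was thus among the stronger peaks of all 6 lists. The D230017M19Rik member (chr1:72243664-72244909) stood at 97.8 and 95.4 in mito, 67.2 and 75.5 in LM, then 63.7 and 22.4 in eG1-1. The mito lists ranked it above all 4 later ones. The Uaca member (chr9:60793959-60795231) stood at 83.3, 95.7, 79.4, 91.4, 96.6 and 95.2 in the order mito, LM and eG1-1, replicate 1 before 2, and its groups overlapped. The Platr22 member (chr1:136694684-136696450) stood at 87.4 and 74.4, 67.2 and 27.8, and 22.2 and 69.8 in the same order, with both mito values above the other 4. These are 4 regions picked by eye and were not tested.

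A second set of sequences comes from the miR-290 cluster, which makes the most characteristic miRNAs of mouse embryonic stem cells. The chain around it (chr7:3191886-3222846, 7 members, called here after the neighbouring gene Nlrp12) was also picked after its values were seen. The 5 arms printed, all 3' arms, were picked because they share the bases AAGUGC in the seed (bases 2 to 8, in capitals), the stretch that pairs with targets. Some other 3' arms of the cluster, such as miR-293-3p, have other seeds, and the 5 printed are not a full list of the arms. The 3' arms of miR-291a, miR-294 and miR-295 have the same seed, AAGUGCU.
mmu-miR-290a-3p: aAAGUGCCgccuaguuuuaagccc
mmu-miR-291a-3p: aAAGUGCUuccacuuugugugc
mmu-miR-291b-3p: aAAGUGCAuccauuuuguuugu
mmu-miR-294-3p: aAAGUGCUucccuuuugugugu
mmu-miR-295-3p: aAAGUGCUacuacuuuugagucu
All 5 are encoded on the plus strand between 3218674 and 3220837 of chromosome 7, inside the span of the chain but in the gap between 2 members. The member at chr7:3221494-3222846 begins 657 bp beyond miR-295-3p, and it was held by mito replicate 2, both LM lists and eG1-1 replicate 2. The 7 members of this chain were held in numbers of 5 and 6 in mito, 7 and 4 in LM, then 5 and 6 in eG1-1. The groups overlapped completely. Its member at chr7:3211800-3212678 was in all 6 lists at percentiles 58.5, 71.8, 40.6, 21.6, 44.8 and 82.7, and the member at chr7:3193122-3193675 at 78.3, 75.6, 40.6, 21.6, 26.2 and 76.0. In both members the LM lists stood below both mito lists.

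Most chains were just past the threshold of 5. There were 126 chains of 5 regions, 50 of 6, 33 of 7, 14 of 8, 4 of 9, 2 of 10, 1 of 12 and 1 of 13. Just inside the threshold lay 630 regions in chains of 5, and just outside lay 1244 regions in 311 chains of 4. The spans ran from 9.94 to 74.6 kb, with a median of 33.6 kb. Together the chains spanned 8.01 Mb, of which the member regions covered 977 kb, or 12.2%. The clusters are therefore mostly sequence outside the member regions. Peaks that the rule left out, those of 1 list alone or within 1 kb of a gene end, were not counted in the spans.

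Members lay less often inside protein-coding genes than the other shared distal regions did. Of the members 549 (40.5%) lay within a gene body, against 12747 (51.5%) of the others. Their median distance to the nearest gene end was 14.6 kb, against 18.3 kb for the others, and 38.0% against 34.6% lay within 10 kb of one. Of the 231 chains, 49 lay whole inside coding genes, 80 whole outside them and 102 were mixed. A gene end fell within the span of 116 chains, 36 chains contained a whole gene, and 216 came within 50 kb of a gene end. These positions follow in part from the rule, which keeps gene ends out of the members, and no test was made.

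Presence of peaks chose the members, so the share of members held in each list is a description, with no test. Members had a peak in 60.8% (823 of 1354) and 72.8% (986) of cases in the mito lists, in 53.2% (720) and 43.9% (595) in the LM lists, and in 61.2% (829) and 85.7% (1161) in the eG1-1 lists. The LM lists, also the shortest, held the fewest members, and the mito and eG1-1 lists overlapped. The Wilson 95% intervals were 58.2 to 63.3%, 70.4 to 75.1%, 50.5 to 55.8%, 41.3 to 46.6%, 58.6 to 63.8% and 83.8 to 87.5% in that order, and cover counting error only. The other shared distal regions were held in 49.7% and 64.1%, 47.8% and 45.5%, and 69.1% and 88.6%. Group means for members were 66.8% ± 8.51 (SD, n = 2) in mito, 48.6% ± 6.53 in LM and 73.5% ± 17.3 in eG1-1, against 56.9% ± 10.2, 46.6% ± 1.64 and 78.8% ± 13.8 for the others.

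Against the background in the same list, members were held more often in mitosis and less often in early G1. The member share minus the share of the others was 11.1 and 8.70 percentage points in mito, 5.40 and -1.52 in LM, then -7.84 and -2.84 in eG1-1. Both mito values lay above both LM values, and those above both eG1-1 values. The mean difference was 9.89 ± 1.69 (SD, n = 2), 1.94 ± 4.89 and -5.34 ± 3.54 percentage points, a slope of -7.61 points per stage step. Members and others were read in the same list each time, but this is no test, because the rule saw the same peaks.

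**Figure D1:**
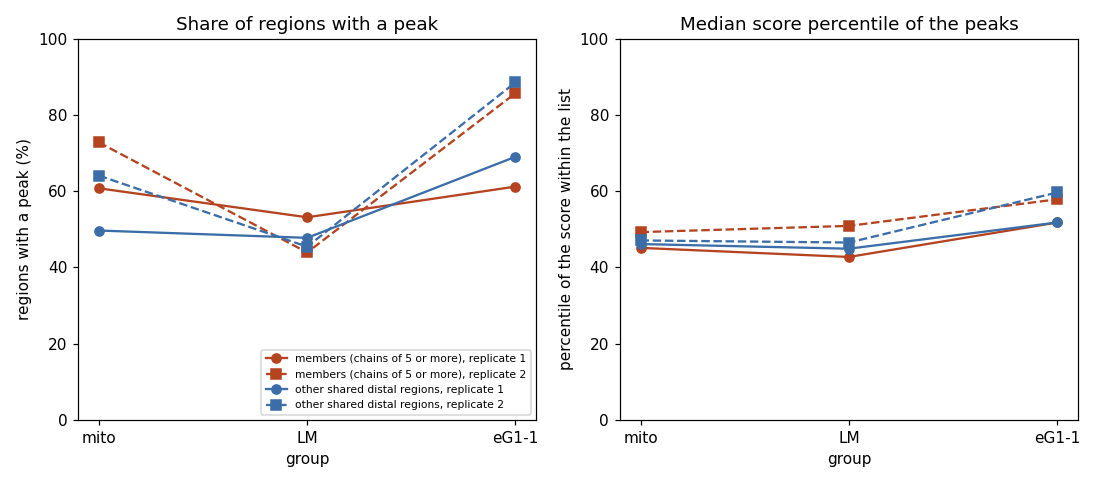
Left, the share of regions with a peak (percent) in each list by group, and right, the median percentile of the peak scores within the list, for member regions (red) and other shared distal regions (blue), with replicate 1 as circles and replicate 2 as squares. Members lie above the others in both mito lists (60.8 against 49.7% and 72.8 against 64.1%) and below them in both eG1-1 lists, whereas the score percentiles of the sets lie close together.

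The same quantity was then read in lists that had not chosen the members. With chains built from the 3 replicate 2 lists alone (73 chains, 415 members) and read in the replicate 1 lists, the member share minus that of the others was 10.3 percentage points in mito, 8.28 in LM and -3.75 in eG1-1. With chains built from the replicate 1 lists (25 chains, 132 members) and read in replicate 2, it was 5.21, -5.84 and -7.96. In each run the values went down in the order mito, LM, eG1-1, and the slope was -6.80 points per step. The two-sided exact permutation test over all 90 assignments gave p = 0.133, and the exact permutation within runs gave p = 0.0556, the smallest its 36 assignments allow. This reading was added after the data had been seen. The values of the 2 runs rest on different members, and the 90 assignments exchange values between runs. The lists that chose the members also came from the same 3 stages as those read, so a choice that depended on stage can carry over. Neither p is therefore read as a call.

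In the lists as deposited, the difference between early G1 and mitosis became smaller from chain size to chain size. Single distal regions were held 25.5 percentage points more often in eG1-1 than in mito (mean of 2 lists each), regions in pairs 19.2, in chains of 3 14.6 and in chains of 4 10.5. The members continued this run, with 8.41 points in chains of 5, 5.56 in chains of 6 or 7 and 4.15 in chains of 8 or more. In replicate 1 the values for members were 1.43, 0 and -1.55, and in replicate 2 they were 15.4, 11.1 and 9.84. For chains of 1, 2, 3 and 4 they were 23.3, 16.0, 11.2 and 8.04 in replicate 1 and 27.6, 22.3, 17.9 and 12.9 in replicate 2. With lists of equal length the run was not steady. The means were then 8.08 points for single regions, -0.51 for pairs, -4.47 and -3.12 in chains of 3 and 4, -13.8 in chains of 5, -7.78 in chains of 6 or 7 and -3.85 in chains of 8 or more (26 regions). By these means every size above 1 lay on the side of mitosis, and the largest chains lay level with chains of 3. By replicate, pairs had -1.08 and 0.058, and chains of 8 or more had -7.69 and 0. At the sizes between these, both replicates lay below 0. The chain sizes were built from the same peaks as the shares, so these values are a description and no test.

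**Figure D2:**
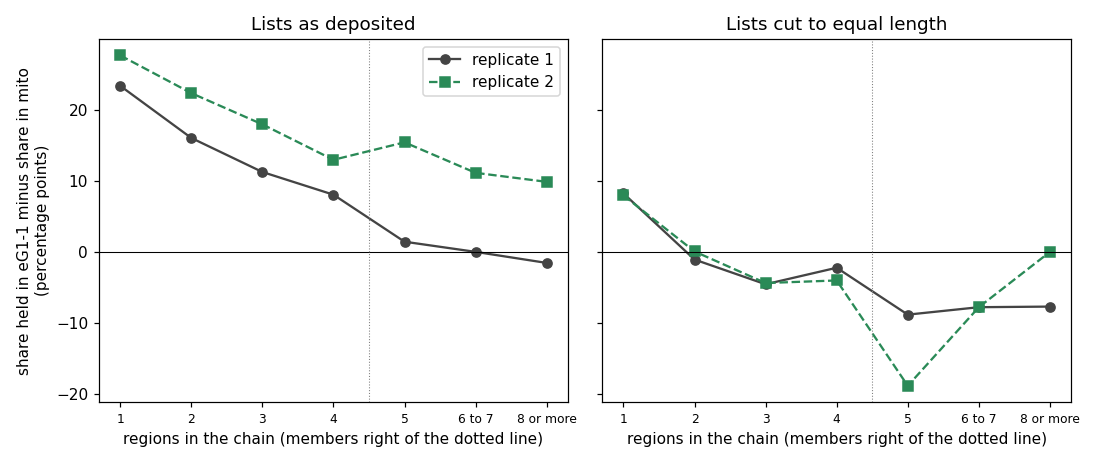
Share of regions held in eG1-1 minus the share held in mito (percentage points) by the number of regions in the chain, for replicate 1 (circles) and replicate 2 (squares), with the lists as deposited on the left and reduced to the same number of strongest peaks on the right. Values go from 23.3 and 27.6 for single regions to -1.55 and 9.84 for chains of 8 or more on the left, and are below those of single regions at every larger size on the right, where the last point rests on 26 regions. Chain sizes and shares come from the same peaks.

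List length moved these values. The eG1-1 replicate 2 list was the longest, and without it the rule gave only 103 chains with 583 members, and without eG1-1 replicate 1 151 chains with 875 members. The slope of the member share itself was 3.34 points per step with all lists and -9.51 without eG1-1 replicate 2, so no direction of the plain share is given. With each list reduced to its 20289 strongest peaks there were 51 chains with 286 members. They were then held in 67.5% and 72.7% in mito, 65.4% and 63.3% in LM, then 59.1% and 59.1% in eG1-1. The others were held in 60.3% and 63.3%, 59.1% and 62.7%, and 65.4% and 68.4%. The member minus other difference kept its order at 7.20 and 9.38, 6.24 and 0.57, and -6.28 and -9.35 points. Its slope was also negative under each alternative in which it could vary, that is, all but the one over regions in all 6 lists, and ran from -12.8 (a gap of at most 5 kb, 33 members) to -5.74 (without eG1-1 replicate 1).

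The contrast was not limited to one distance from genes. Among members 1 to 5 kb from a gene end (280) the mean shares were 66.4% in mito and 72.3% in eG1-1, against 61.5% and 75.9% in the others of that band. At 5 to 20 kb (541 members) they were 69.0% and 73.5% against 56.8% and 79.2%. At 20 to 100 kb (481) they were 64.6% and 74.1% against 54.8% and 79.4%, and beyond 100 kb (52) 66.3% and 74.0% against 55.9% and 80.8%. In each band members stood above the others in mito and below them in eG1-1. The rule saw the same peaks, so the bands are a description and no test. Members inside coding genes had 66.4% in mito, 49.0% in LM and 73.7% in eG1-1, close to the 67.1%, 48.3% and 73.4% of those outside.

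Single members can be sorted by which stages held them. Of the 1354 members, 162 (12%) were held by both eG1-1 lists and neither mito list, against 18.2% of all shared distal regions. The reverse held for 73 (5.39%), against 2.68%. Members held by both eG1-1 lists and neither LM list numbered 225 (16.6%, against 20.7%), and the reverse 18 (1.33%, against 0.682%). Both mito lists and neither LM list held 119 members (8.79%, against 6.77%), and the reverse held 16 (1.18%, against 1.93%). All 6 lists held 281 members (20.8%, against 19.4%), exactly 2 lists held 393 (29.0%, against 33.5%), and both eG1-1 lists alone held 120 (8.86%, against 12.6%). Both mito lists alone held 31 (2.29%, against 1.41%), both LM lists alone held 2 (0.148%, against 0.226%), and mito and eG1-1 without LM held 40 (2.95%, against 2.7%). The rule used these contrasts, so nothing is read from the counts beyond their values. The counts also moved with single lists: without eG1-1 replicate 2 the rule gave 27 regions for eG1-1 and not mito and 125 for mito and not eG1-1, without eG1-1 replicate 1 the former was 78, and without mito replicate 2 the latter was 43. For eG1-1 and not LM the count was 62 without eG1-1 replicate 2, and for the reverse it was 37 and 67 without LM replicate 1 and 2, and 54 without eG1-1 replicate 2. The count for mito and not LM was 253 without LM replicate 1 and 180 without mito replicate 1, but 58 where eG1-1 replicate 2 was left out. For the reverse it was 60 and 50 without LM replicate 1 and 2, and 42 without mito replicate 2. No share of the others is given beside these counts. With lists of equal length (286 members) the balance with eG1-1 turned among members. There 17 regions (5.94%, against 11.5% of the others) were in eG1-1 and not mito, and 34 (11.9%, against 7.63%) were the reverse. For eG1-1 and not LM there were 11 (3.85%, against 8.67%), and for the reverse 19 (6.64%, against 4.45%). In mito and not LM were 14 (4.90%, against 5.00%), and the reverse 9 (3.15%, against 4.03%). Among the others, eG1-1 kept the larger share against mito and against LM.

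Members of either kind mostly stood beside members not of that kind, which kinds this rare do in any case. For eG1-1 and not mito, 222 neighbouring pairs had 1 such member and 18 had both. For mito and not eG1-1, 112 pairs had 1 and 5 had both. Chains holding both kinds were not counted. Of the 231 chains, 118 held at least 1 member called in both eG1-1 lists and neither mito list, 82 of them exactly 1, 29 exactly 2 and 7 at least 3. Members of mito and not eG1-1 occurred in 59 chains, 47 with 1, 10 with 2 and 2 with 3. By region, the first kind made up 12% of members against 18.2% of all shared distal regions, and the second 5.39% against 2.68%. No such count of smaller chains is given, so the numbers of chains are not read as a lead of either stage. The most eG1-1 members in 1 chain were 4, near Glo1, and the most mito members were 3, near Ppp2r5a and near Acot11. For most kinds the share of like neighbours lay near the share among all members. A member next to one held by all 6 lists was itself held by all 6 in 24.0% of cases, against 20.8% of members. For eG1-1 and not mito the figures were 14.0% against 12%, and for mito and not eG1-1 8.20% against 5.39%. For eG1-1 and not LM they were 17.3% against 16.6%, and for LM and not mito 14.3% against 1.18% (2 pairs alike). For mito and not LM they were lower, at 6.0% against 8.79%, and for LM and not eG1-1 no pair was alike, against 1.33%. These shares are over 1123 neighbouring pairs. In chains of 2 to 4 (5910 pairs) the figures were 19.4% against 18.4% for all 6 lists and 19.4% against 16.2% for eG1-1 and not mito. For mito and not eG1-1 they were 3.60% against 3.34% there. Differences between kinds were not tested.

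No chain was held whole by all lists. A chain had a peak in every member in 14 and 39 cases in the mito lists, 6 and 5 in the LM lists, and 16 and 97 in the eG1-1 lists. The median share of a chain held was 60% and 80% in mito, 57.1% and 40% in LM, then 60% and 85.7% in eG1-1. Chains without any peak numbered 2 and 0, 7 and 16, and 1 and 0. In 165 chains at least 1 member was in all 6 lists, in 82 at least 2 were, and in 66 none was. The replicates of a group differed as widely as the groups did, so a chain held in part is not read as a change.

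**Figure D3:**
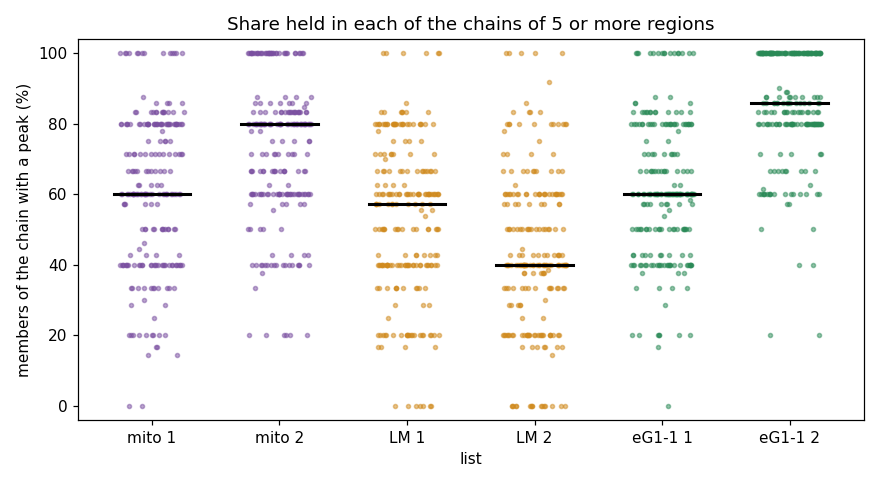
Each point is 1 of the 231 chains and gives the percentage of its members with a peak in that list, with a small horizontal scatter to separate points, and the black bar is the median. The medians are 60 and 80% in mito, 57.1 and 40% in LM, then 60 and 85.7% in eG1-1, and points spread widely in every list.

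Counted chain by chain, both eG1-1 lists held more regions than either mito list in 38 of the 231 chains (16.5%), against 22.7% of all 4593 chains of 2 or more. Both mito lists held more than either eG1-1 list in 13 (5.63%, against 3.66%). Both mito lists held more than either LM list in 75 (32.5%, against 14.9%), and the reverse held for 1 chain (0.433%, against 2.33%). Both eG1-1 lists held more than either LM list in 85 (36.8%, against 31.2%), and the reverse held for 1 (0.433%, against 0.523%). Larger chains can separate more easily than pairs, so these shares are not on equal footing with the background.

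Counted by members held by both lists of a group, eG1-1 led mito by 5 members in the chains near Sox1 and in Etl4, the largest lead. The first is a chain of 10 members beginning 28988 bp from Sox1, an early neural transcription factor (chr8:12428543-12503185, the longest span of all). The mito lists held 3 and 6 of its members, the LM lists 5 and 3, the eG1-1 lists 8 and 10. Both eG1-1 lists held more than any of the other 4. The member at chr8:12438608-12439897 was in all 6 lists, with scores of 150 and 152 in mito, 169 and 165 in LM, then 264 and 491 in eG1-1. Its percentiles lay between 90.2 and 99.5, so it was a strong peak of every list, and the eG1-1 percentiles of 98.5 and 99.5 were above the other 4. The members at chr8:12445929-12446224, chr8:12455161-12455786 and chr8:12499671-12499978 were called in both eG1-1 lists and nowhere else, with scores of 31 and 59, 39 and 28, and 30 and 136. The chain thus held a strong peak of every list and members called in early G1 alone. Another member, chr8:12431374-12432308, was also in all 6 lists, and the remaining members were held across groups.

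A chain inside Etl4 (chr2:20493852-20526877, 5 members, with the gene table giving no exons) was held at 3 and 1 members in mito, 0 and 1 in LM, then 5 and 5 in eG1-1. No member was in all 6 lists, and the groups mito and eG1-1 did not overlap. Its member at chr2:20508315-20508817 was called in eG1-1 alone, with scores of 24 and 49. The chain at Timp2, which encodes an inhibitor of matrix metalloproteinases (chr11:118289033-118317590), went from 1 and 2 of 5 members in mito and 1 and 1 in LM to 5 and 5 in eG1-1. Its members at chr11:118298812-118299297 and chr11:118303877-118304279 were eG1-1 only, with scores of 25 and 68, and 40 and 84. A chain near Gm21119 (chr8:20577944-20599784) had 0 and 3 of 5 in mito, 2 and 5 in LM, then 4 and 4 in eG1-1. Its LM values enclosed those of eG1-1.

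Other chains of this kind were picked after their values were seen. At Glo1, the glyoxalase that clears methylglyoxal, 3 and 3 of 7 members were held in mito, 2 and 3 in LM, then 6 and 6 in eG1-1. Its member at chr17:30609501-30610081 was called in eG1-1 alone, with scores of 92 and 141, and the member at chr17:30598258-30598974 had 42 and 61 in mito, 128 and 187 in LM, then 201 and 289 in eG1-1. Its percentiles were 34.6 and 51.3, 87.5 and 96.7, and 96.7 and 97.4, so both mito values lay below the other 4. At Uaca 3 and 3 of 5 were held in mito, 3 and 2 in LM, then 5 and 5 in eG1-1. There the member at chr9:60813388-60813901 was in eG1-1 alone at scores of 184 and 156, percentiles 95.8 and 89.1. Of the other 4 members of this chain, 2 were held by all 6 lists, among them the Uaca start printed above, 1 by both eG1-1 lists alone, and 1 by every list but LM replicate 2.

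Mito led eG1-1 most, by 5 members held by both lists, in a chain of 6 members 20210 bp from Apol7a, an apolipoprotein L gene (chr15:77336065-77368007). The mito lists held 5 and 6, the LM lists 6 and 2, the eG1-1 lists 0 and 4. Both mito values exceeded both eG1-1 values. Its member at chr15:77336065-77337313 scored 50 and 82 in mito, 51 and 45 in LM, no peak in eG1-1 replicate 1 and 29 in replicate 2. The member at chr15:77338399-77339034 scored 71 and 39 in mito, 49 and 34 in LM, and had no peak in either eG1-1 list. The member at chr15:77358587-77359198 scored 63 and 50 in mito and 75 in LM replicate 1, with no peak in the other 3 lists.

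Inside Ppp2r5a, a regulatory subunit gene of protein phosphatase 2A (chr1:191364492-191391921, 7 members), the counts were 6 and 7 in mito, 5 and 4 in LM, then 3 and 4 in eG1-1. The member at chr1:191371126-191376230 was held by all 6 lists with scores of 37 and 62, 51 and 44, and 32 and 63. Beside it the member at chr1:191376462-191379885 had scores of 39 and 40 in mito, 43 and 20 in LM, no peak in eG1-1, and that at chr1:191380175-191380649 was in mito alone with 33 and 33. The chain at Draxin, which encodes a secreted guidance protein, had 5 and 7 of 7 in mito, 3 and 4 in LM, then 2 and 6 in eG1-1. The chain at Pced1b had 6 and 8 of 8, 5 and 2, and 3 and 7. In both the mito and eG1-1 lists overlapped, so the order rests on members held by both lists of a group.

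Few chains were ahead in late mitosis, whose lists were the shortest as deposited. With lists of equal length (286 members) LM held 65.4% and 63.3% of members, between mito (67.5% and 72.7%) and eG1-1 (59.1% and 59.1%). Leads by chain are given for the lists as deposited only. The largest lead of LM in members held by both lists of a group, over the mean of the other stages, was 1 member, in 5 chains, of which the one at Bmp4 is described with the signalling genes. At St6galnac3, a sialyltransferase gene, the counts were 3 and 5 of 6 in mito, 4 and 3 in LM, then 3 and 5 in eG1-1. Near Zfp980 they were 4 and 3, 5 and 4, and 3 and 3 of 6. In the second of the chains at Zfp978 they were 4 and 5, 5 and 5, and 3 and 6 of 7, and at Sema4b, a semaphorin gene, 3 and 6, 4 and 4, and 1 and 6 of 6. LM touched or overlapped mito in each of these 4 chains, and it lay above eG1-1 without overlap near Zfp980 alone.

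**Figure D4:**
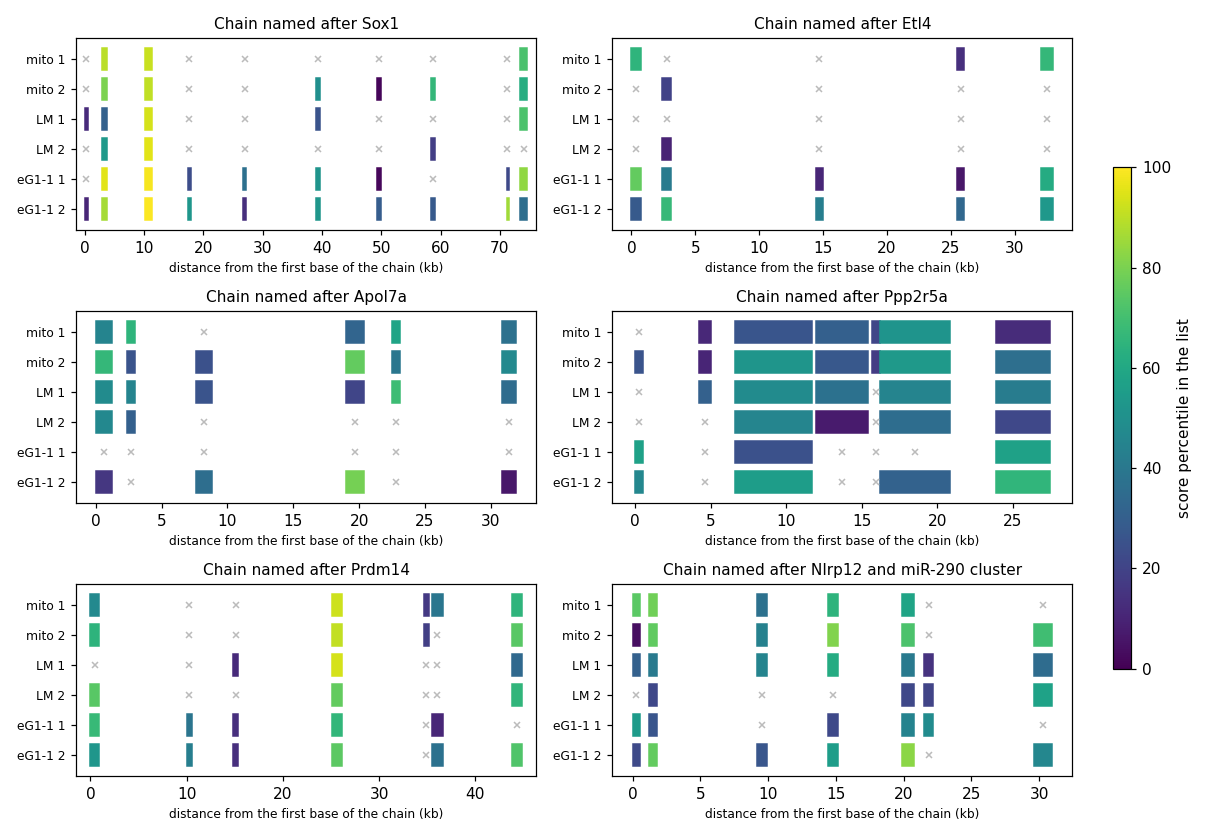
Members of 6 chains drawn to scale (kb from the first base of the chain) in each list, with a rectangle the width of the merged region where the list had a peak, coloured by the percentile of its score in that list, and a grey cross where it had none. The Sox1 and Etl4 chains hold 10 and 5 members in eG1-1 replicate 2 and fewer in mito, the Apol7a chain holds none in eG1-1 replicate 1, and the Prdm14 and Nlrp12 chains are partly held in every list.

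Genes of the pluripotency network were checked from lists written down with earlier results known, by asking whether a chain lay within 50 kb of the gene body. Over all 20665 protein-coding genes this held for 664 (3.21%). Of 18 naive pluripotency transcription factors found in the gene table it held for 4, namely Prdm14, Esrrb, Zfp42 and Sall1. Of 20 chromatin and RNA regulators of embryonic stem cells it held for 4, namely Kdm5b, Dnmt3b, Tet2 and Dppa5a, and of 24 genes of signalling it held for Bmp4 alone. Of 18 formative and germ layer genes it held for Gsc, Foxd3, Sox1 and Eomes, and of 16 housekeeping genes for Hsp90ab1 and Actb. None of 18 mitosis regulators and none of 18 marker genes of fibroblasts and other cell types had a chain. No set test was made, and the lists are short.

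Prdm14 encodes a zinc finger factor that protects naive pluripotency and specifies germ cells. Its chain (chr1:13059563-13104383, 7 members, 9045 bp from the gene) had 5 and 4 members held in mito, 3 and 3 in LM, then 5 and 6 in eG1-1. Both LM lists held fewer than the other 4. The member at chr1:13084610-13085745 was in all 6 lists at scores of 158 and 156 in mito, 171 and 78 in LM, then 65 and 96 in eG1-1, percentiles 92.5, 91.0, 93.6, 76.0, 65.7 and 74.6. It stood highest in both mito lists and LM replicate 1. Beside it, chr1:13094171-13094768 was in mito alone at 31 and 34, and chr1:13069645-13069873 in eG1-1 alone at 41 and 49.

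Esrrb encodes an orphan nuclear receptor of the naive network. Its 5 members (chr12:86454650-86479560) all lay within the gene, with 3 and 5 held in mito, 4 and 3 in LM, then 2 and 3 in eG1-1. The member at chr12:86470902-86471820 scored 89 and 186 in mito, 68 and 57 in LM, had no peak in eG1-1 replicate 1 and scored 50 in replicate 2. The percentiles were 75.6 and 94.3, 63.7 and 61.3, and 44.1 in that last list, so both LM values lay below both mito values. The weakest, chr12:86464108-86464687, was called in mito replicate 2 and LM replicate 1 at percentiles of 29.4 and 7.29.

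Zfp42, also called Rex1, is a marker of naive cells. Its chain (chr8:43299478-43330919) held 3 and 2 of 5 in mito, 2 and 2 in LM, then 2 and 4 in eG1-1. The member at chr8:43320540-43321864, 14193 bp from the gene end, scored 164 and 247 in mito, 230 and 211 in LM, then 132 and 294 in eG1-1, percentiles 90.8 to 97.7. The groups overlapped at this strong peak. The member at chr8:43311005-43311424 was in mito alone with 58 and 44. Sall1 encodes a zinc finger factor, and its chain began 1280 bp from it (chr8:88991131-89025962). It held 4 and 5 of 5 in mito, 5 and 2 in LM, then 4 and 5 in eG1-1. Its member at chr8:88991131-88992700 was in all lists, at percentiles 95.7 and 95 in mito, 81.1 and 44.2 in LM, then 51.8 and 56.7 in eG1-1, with both mito values on top.

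Among the regulators, Tet2 encodes an enzyme that oxidises methylcytosine. Its 5 members, all in the gene, were held at 4 and 4 in mito, 3 and 3 in LM, then 4 and 3 in eG1-1. The member at chr3:133524140-133525411 was in all lists at scores of 84 and 131, 131 and 51, and 93 and 91, and chr3:133543904-133544339 was in mito alone at 29 and 47. Dppa5a encodes an RNA-binding protein of pluripotent cells. Its chain held 3 and 2 of 5 in mito, 3 and 1 in LM, then 3 and 4 in eG1-1, with chr9:78350032-78350319 in eG1-1 alone at 41 and 27. The chain at Rabif, 24088 bp from the histone demethylase gene Kdm5b, held 4 and 5, 1 and 3, and 3 and 4 of 5. That at Commd7, 26310 bp from the DNA methyltransferase gene Dnmt3b, held 3 and 5, 5 and 3, and 4 and 5 of 5. Bmp4, the ligand gene, had 3 and 4 of 6 in mito, 3 and 5 in LM, then 2 and 4 in eG1-1. For Dppa5a, Commd7 and Bmp4 all 3 groups overlapped or touched.

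The chains near formative genes differed among themselves. That at Foxd3, a forkhead factor of early embryonic cells, held 5 and 6 of 8 in mito, 4 and 3 in LM, then 4 and 8 in eG1-1. That at Eomes held 5 and 6 of 7, 3 and 3, and 4 and 5, and that at Serpina3n near Gsc held 5 and 4 of 6, 4 and 2, and 4 and 6. In contrast to the Sox1 chain, mito and eG1-1 overlapped or touched in each. Of the housekeeping genes, the chain at Actb held 4 and 7 of 8, 6 and 4, and 4 and 5. The chain across Hoxc4 to Hoxc8, picked after its values were seen, held 5 and 6 of 7 in mito, 5 and 0 in LM, then 5 and 6 in eG1-1, so 1 LM list had no peak there and the other had as many as mito replicate 1.

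The chain near Sox1, with 10 members, was among the largest, and its mito and eG1-1 lists did not overlap. The chain with 13 members, at Zfp978, held 6 and 11 in mito, 7 and 5 in LM, then 7 and 8 in eG1-1. The one with 12, 6342 bp from Gpx5, a glutathione peroxidase gene of the epididymis, held 10 and 8, 8 and 11, and 7 and 8. At Tsc22d1, a leucine zipper regulator (10 members), the counts were 8 and 6, 7 and 5, and 5 and 9. Of the chains with 9, Zfp982 had 6 and 7, 7 and 3, and 6 and 6, Slc2a7 4 and 6, 5 and 7, and 6 and 8, Mideas 3 and 5, 3 and 3, and 5 and 8, and Zfp64 7 and 7, 5 and 4, and 7 and 6. Apart from the Sox1 chain, the mito and eG1-1 groups touched or overlapped in each of these chains of 9 or more members. Of those with 8, Chrna1, a muscle acetylcholine receptor gene, had 5 and 5, 0 and 3, and 5 and 8, and Chd9, a chromatin remodeller gene, had 6 and 7, 6 and 6, and 7 and 7. Cacna1a, a calcium channel gene, had 5 and 6, 4 and 3, and 4 and 7, and Bcat1, a branched-chain aminotransferase gene, had 2 and 3, 2 and 3, and 5 and 7. Of these 4, the Bcat1 chain was the one whose eG1-1 lists both held more than every other list.

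Peak scores of members and others were not told apart. The score was not used by the rule, and the median percentile of peaks in members was 45.1 and 49.3 in mito, 42.8 and 50.9 in LM, then 51.8 and 57.9 in eG1-1. The slope was 3.82 percentile points per step, with p = 0.156 in the exact two-sided permutation test (adjusted p = 0.389 over 5 tests, Benjamini-Hochberg). Members minus others came to -1.0, 2.19, -2.16, 4.37, 0 and -1.79, positive in 2 of 6 lists, with a mean of 0.27 (exact sign-flip permutation p = 0.8125, which is also the adjusted p). The trend of that difference was -0.74 per step, with exact permutation p = 0.644 and adjusted p = 0.806. No difference in score was detectable with 6 lists.

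Peak widths were likewise close. The median width in members was 434 and 530.5 bp in mito, 437.5 and 322 bp in LM, then 336 and 462 bp in eG1-1, and in the others it was 441 and 511, 432 and 333, and 356 and 472 bp. The mean difference was -3.83 bp, narrower in 4 of 6 lists (exact sign-flip permutation p = 0.5, adjusted p = 0.806), and its trend was -10.6 bp per step (exact permutation p = 0.156, adjusted p = 0.389). The smallest p that these designs allow is 0.0222 for a trend and 0.03125 for a sign flip.

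Among regions open throughout, scores of members relative to the others were lowest in early G1. Among regions in all 6 lists (281 members, 4784 others) the median percentile of members was 72.0 and 75.6 in mito, 66.6 and 63.7 in LM, then 69.7 and 80.4 in eG1-1. Members minus others was 4.69 and 1.27 in mito, 2.93 and -0.81 in LM, then -5.72 and -3.94 in eG1-1, so both eG1-1 values lay below the other 4. The slope was -3.90 percentile points per step, with an unadjusted exact permutation p = 0.0444. This selection was added after the data had been seen, and over all members the same slope was -0.74.

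Which member was strongest was often kept between lists. In the 207 chains with a peak in every list, 40 had the same strongest member in all 6. Pairs of replicates shared the strongest member in 52.2 to 55.5% of chains (median 54.6), pairs from the same run in 38.6 to 57.2% (median 48.4), and the remaining pairs in 38.0 to 54.0% (median 45.5). These ranges overlap, and chains of 5 have few members to choose from. Of the 40 strongest members, the one with the highest scores in the mito and LM lists lay near Gm15319 (chr8:20424151-20425274), with 1448 and 1312 in mito, 1019 and 932 in LM, then 464 and 836 in eG1-1. Highest in both eG1-1 lists was the one in Sfi1, a centrosome protein gene (chr11:3192794-3193953), with 892 and 1020, 964 and 922, and 530 and 961. The strong members near Zfp42 and Sox1 described above were also among the 40.

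The chains were spread unevenly over the chromosomes. Chromosome 4 carried 207 members (15.3%, 33 chains) against 7.68% of the shared distal regions and 6.43% of protein-coding genes, and chromosome 8 carried 201 (14.8%, 34 chains) against 7.95% and 5.05%. Chromosome 15 carried 96 (7.09%) against 3.94% of shared distal regions. Chromosome 14 carried 16 (1.18%) against 3.54%, and chromosome 6 carried 25 (1.85%) against 5.42%. The shared distal regions were most dense on chromosome 8, at 16.4 per Mb, and chromosome 11, with 14.9 per Mb, carried 76 members (5.61%). How density bears on the spread of the chains was not tested. The share of peaks on chromosome 8 was 7.30 to 8.08% over the lists, a like figure in each, and the number of copies of that chromosome in these cells was not measured. Without it 197 chains with 1153 members were left, and the slope of the member minus other share was -8.22.

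**Figure D5:**
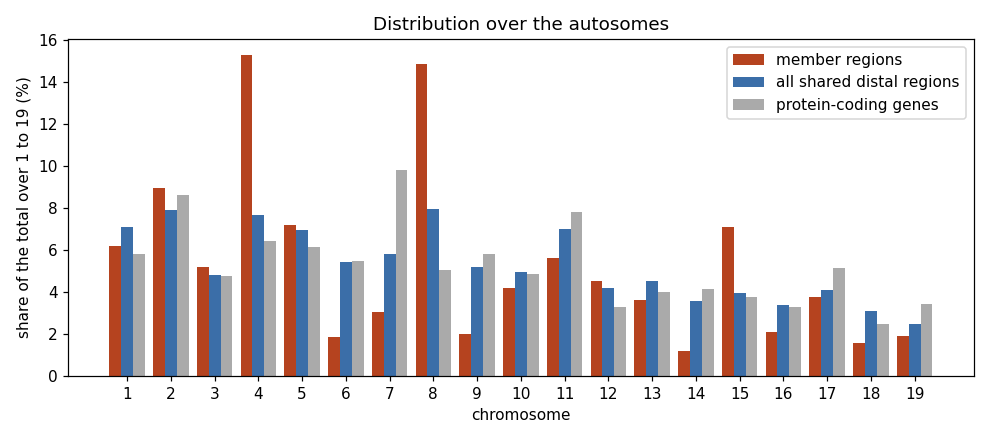
Percentage of member regions (red), of all shared distal regions (blue) and of protein-coding genes (grey) on each of the chromosomes 1 to 19, each set summing to the whole. Chromosomes 4 and 8 hold 15.3 and 14.8% of members against 7.68 and 7.95% of shared distal regions, and chromosomes 6, 9 and 14 hold fewer members than their share of regions.

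Some chains lay close together in short stretches with repeated genes. On chromosome 4, chr4:145431738-148914008 held 8 chains with 59 members, among them those called Zfp980, Zfp992, Zfp978 and Zfp982 after zinc finger genes that lie there in tandem, but also those called Draxin and Casz1. On chromosome 13, chr13:21215175-23518022 held 6 chains with 43 members, from Gpx5 over Zfp184 to Btn1a1, although chromosome 13 as a whole carried 3.62% of members against 4.52% of shared distal regions. Reads from near-identical copies can be placed at more than 1 of them, and the treatment of such reads is not given in the sources used here. Counts at the Zfp genes on chromosome 4, near Gm15319 and Gm21119 on chromosome 8 and in Sfi1 are uncertain for that reason.

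The rule keeps regions off the ends of coding genes, so which RefSeq starts lie under members follows in part from it. Of the 77 such members, in 66 chains, 46 lay over a non-coding start and 33 over a coding one, for 76 genes. They were held in 71.4% and 83.1% in mito, 71.4% and 44.2% in LM, then 57.1% and 81.8% in eG1-1, against 60.1% and 72.2%, 52.1% and 43.9%, and 61.5% and 86.0% of members without a start. They stood above the latter in all 4 lists of mito and LM and below them in both eG1-1 lists. All 6 lists held 20 of them (26.0%), against 20.4% of those without.

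The 91 promoter windows that overlap members were searched for 8 motifs on both strands, and the share of all 31396 windows on chromosomes 1 to 19 is given beside each. The KLF motif GGGNGTGG was in 26 (28.6%), against 17.7% of all windows and 20.3% of windows over other distal regions. The CCAAT box CCAATCA was in 9 (9.89%, against 7.69%), and the ETS motif CCGGAAGT was in 2 (2.2%, against 3.95%). The OCT octamer ATGCAAAT was in 1, the one printed above at D230017M19Rik, against 1.75% of all windows. The SOX motif CATTGTT was in 1 (against 3.75%) and the NRF1 motif in 1 (against 0.968%). The ESRRB motif TCAAGGTCA (0.417% of all windows) and the CRE motif TGACGTCA (1.83%) were in none. A match says that these letters stand in the window and not that a factor binds there, and windows of alternative starts overlap each other.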

How the data were processed

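ATAC-seq peak lists of 6 samples were used, 2 each for mito, LM and eG1-1. Per the submitters' processing notes, which give no roles, the tools were MACS2 2.2.4, STAR 2.7.0e, deepTools 3.5.1, bedtools, SAMtools 1.10 and Picard, and the builds GRCm38 and mm10. By the names of the peaks, the authors called them per sample on paired-end fragments. The deposited score is a whole number set by the authors for each peak (lowest 13), of a scale not given in the sources used here, as are any Tn5 shift and the treatment of reads with several matches. Scores were used only within a list.

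Regions, gene ends (RefSeq, GRCm38.p6, the assembly of mm10) and chains followed the rule given above, in Python 3.11.15 with pandas 2.3.3, numpy 2.4.6 and scipy 1.17.1, and were checked on simulated lists. A score percentile is the rank of a region's strongest peak within its list, from 0 to 100. Trends are least-squares slopes over the stage order mito, LM, eG1-1, tested by two-sided exact permutation, and member minus other differences by exact sign flips (5 tests, Benjamini-Hochberg). Chains were named for size, for a listed gene within 50 kb, or for their difference between stages. The rule also asked for the 4 largest chains held whole by all lists, and found none. Other chains are said to be picked after their values were seen. Members and gene lists were chosen with earlier results of these data known.

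Replicate number matches a code in the peak names, taken here as the sequencing run, so numbers pair samples by run only. Deviations over members correlated within runs at 0.123 between eG1-1 and mito, 0.0401 between LM and mito and 0.00417 between eG1-1 and LM. Alternatives changed the gap, chain size, distance from gene ends, number of lists, merging, list length and score minimum, permuted within runs, and left out each list. Those without chromosome 8, over regions in all 6 lists, and with members chosen on the other replicate were added after the data had been seen.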

Additional observations from a re-analysis of the deposited data

How the results depend on the processing

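Counts of members moved with the rule, and the share of members minus that of others kept a negative slope under every alternative in which it could vary. Counts follow in the order chains, members, and members in eG1-1 and not mito, mito and not eG1-1, eG1-1 and not LM, LM and not eG1-1, mito and not LM, LM and not mito. A gap of at most 5 kb gave 6, 33, 4, 6, 7, 1, 5 and 0, and a gap of at most 25 kb 815, 5480, 702, 223, 937, 54, 474 and 87. Chains of 4 or more gave 542, 2598, 315, 117, 430, 30, 240 and 30, and chains of 8 or more 22, 193, 18, 9, 26, 2, 12 and 6. Regions held by 3 or more lists gave 64, 359, 7, 14, 36, 8, 26 and 6. Lists of equal length gave 51, 286, 17, 34, 11, 19, 14 and 9, and peaks with a score of at least 50 gave 21, 118, 14, 7, 20, 2, 11 and 0. With 1 list left out in turn the ranges were 103 to 200, 583 to 1159, 27 to 194, 43 to 125, 62 to 309, 16 to 67, 58 to 253 and 13 to 60. With a group reduced to 1 list, that list alone decides a call. These counts stand without the shares of the others, so nothing is read from them beyond their values.

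The slope of the member share was -2.27 with a gap of 5 kb, -1.11 with 3 or more lists and -5.51 at equal length, and -9.51 to 9.08 with a list left out (below 0 only without eG1-1 replicate 2). The slope of its difference from the others was -12.8 with a gap of 5 kb and -9.34 to -5.74 with a list left out. The slope of the score percentile was 8.86 with a gap of 5 kb (exact permutation p = 0.0222, the smallest possible, on 33 members), -2.35 at equal length, and 2.85 to 5.18 with a list left out. That of the percentile difference was 4.30 with a gap of 5 kb, 0.041 with 25 kb, 1.17 in chains of 8, -3.90 over regions in all 6 lists (exact permutation p = 0.0444), and -2.13 to -0.70 with a list left out. The mean percentile difference was -8.41 with a gap of 5 kb, -0.27 in chains of 4, -0.023 beyond 2 kb from gene ends, -0.96 without chromosome 8, -0.26 over regions in all 6 lists, and -1.73 to 1.66 with a list left out. The slope of the width difference was -9.75 bp in chains of 4 (exact permutation p = 0.0444), 6.0 bp at a score of 50, and -14.6 to -3.96 bp with a list left out. The mean width difference was 1.67 bp with a gap of 5 kb, 1.75 with 25 kb, 0.5 in chains of 8, 2.83 over regions in all 6 lists, -40.2 at a score of 50 (exact permutation p = 0.03125, the smallest possible), and -11.9 to -5.4 with a list left out. The cause of these changes was not tested.

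With the replicate block, that is, permuting within runs, the slopes stay as they are (3.82, -0.74 and -10.6), and the exact permutation p became 0.167, 0.722 and 0.278. It changed no call. Peak lists without counts limit all of this: an uncalled region may be open below the caller's threshold, and the eG1-1 replicate 2 list, the longest, holds 1161 of the 1354 members.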
